A study of Mus musculus with 6 samples.

Results

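Integrins and the core proteins of focal adhesions were examined in whole lungs of mice kept in hypoxia for 7 days. The genes were taken from the array annotation by symbol: every alpha chain gene named Itga with a further letter or number, every beta chain gene named Itgb with 1 digit, and a fixed list of 10 adhesion proteins. This gave 35 of the 24704 named genes measured: 18 alpha chains, 8 beta chains and 9 of the 10 adhesion proteins (Tln1, Tln2, Vcl, Pxn, Ilk, Parva, Lims1, Fermt2 and Zyx), while Ptk2 was not analysed here. Each had 1 probe set. The study compared 3 arrays from Nfat5(EC)-/- mice, which lack the osmosensitive transcription factor NFAT5 in endothelial cells, with 3 arrays from Nfat5fl/fl control mice. Knockout mice received tamoxifen at 1 mg per day on 5 days at an age of 10 to 12 weeks and control mice received the solvent miglyol, so genotype and tamoxifen differed together. Mice of both sexes were used, a recovery of 2 to 3 weeks followed the injections, all mice were then exposed to hypoxia, and cold Ringer solution was run through the lungs before they were lysed. The sources used here do not give the promoter that drove the recombinase, and whether each array stands for 1 mouse is not stated, so p-values measure the spread between these arrays, which may be technical. The series states 4 mice per group and that preparations with contaminating tissue or an inadequate expression response to hypoxia were left out, so expression itself played a part in which arrays were kept.

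Integrins are receptors of an alpha and a beta chain that span the cell membrane and bind matrix proteins or, on leukocytes, counter-receptors of other cells. Talins and kindlins bind the short beta tail inside the cell and switch the receptor on, and vinculin, paxillin, zyxin and the complex of integrin-linked kinase, PINCH and parvin tie it to actin. In lung, integrins hold endothelium, epithelium and mesenchyme to their basement membranes, and the chains that pair with alpha v release active TGF-beta from its latent complex. NFAT5 is known for raising genes of osmoprotection under hypertonic stress.

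The arrays gave log2 expression per gene on a common scale, with a median of 2.98 and a lower quartile of 2.02 on each array, and no detection calls. Nfat5 was lower in the knockout lungs, by a log2 fold change of -2.23 ± 0.23 (SE, n = 3 per group), though the sources do not say whether its probes lie in the deleted part. Several features moved with the groups or with single arrays. The median level of 106 snoRNA genes was 6.43 to 7.43 in knockout arrays and 4.01 to 4.20 in control arrays. Xist was 2.03 to 2.37 on 5 arrays and reached 8.22 on control replicate 1, so the sexes were not balanced between the groups. The lung epithelial marker Sftpc was bright on every array, at 11.25 to 12.24 in knockout lungs and 12.13 to 12.24 in control lungs, with overlap. Epcam, another epithelial marker, was dimmer, at 4.65 to 5.01 in knockout lungs and 4.93 to 5.17 in control lungs. Whole-lung RNA cannot tell fewer cells of a type from less RNA per cell. The part of each of these features in the results below was not tested.

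The knockout lungs showed integrin and adhesion genes on both sides of the control level. Of the 35 genes, 8 were higher and 10 lower in knockout lungs at an adjusted p under 0.05 (limma, Benjamini-Hochberg over all genes), with 13 of the 18 past a 2-fold change and adjusted p-values from 0.0019 to 0.046. The background was broad: 25.5% of all 24704 genes passed, 12.5% higher and 13.0% lower. Of these 35 genes 51.4% passed. In a refit of only the 12352 genes above the median of mean level (3.00), 46.9% passed. This refit held 30 of the 35 genes, among which the same 18 passed and Itga5 as well. The median log2 fold change was -0.02 over the 35 genes and 0.04 over all genes. The 3 knockout and 3 control arrays did not overlap at 23 of the 35 genes, 12 higher and 11 lower. Of all genes 41.9% were apart in this way, 21.9% higher and 20.0% lower. The 18 genes past the threshold were apart without exception, but they were called on these same values, so their separation is no further evidence.

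**Figure D1:**
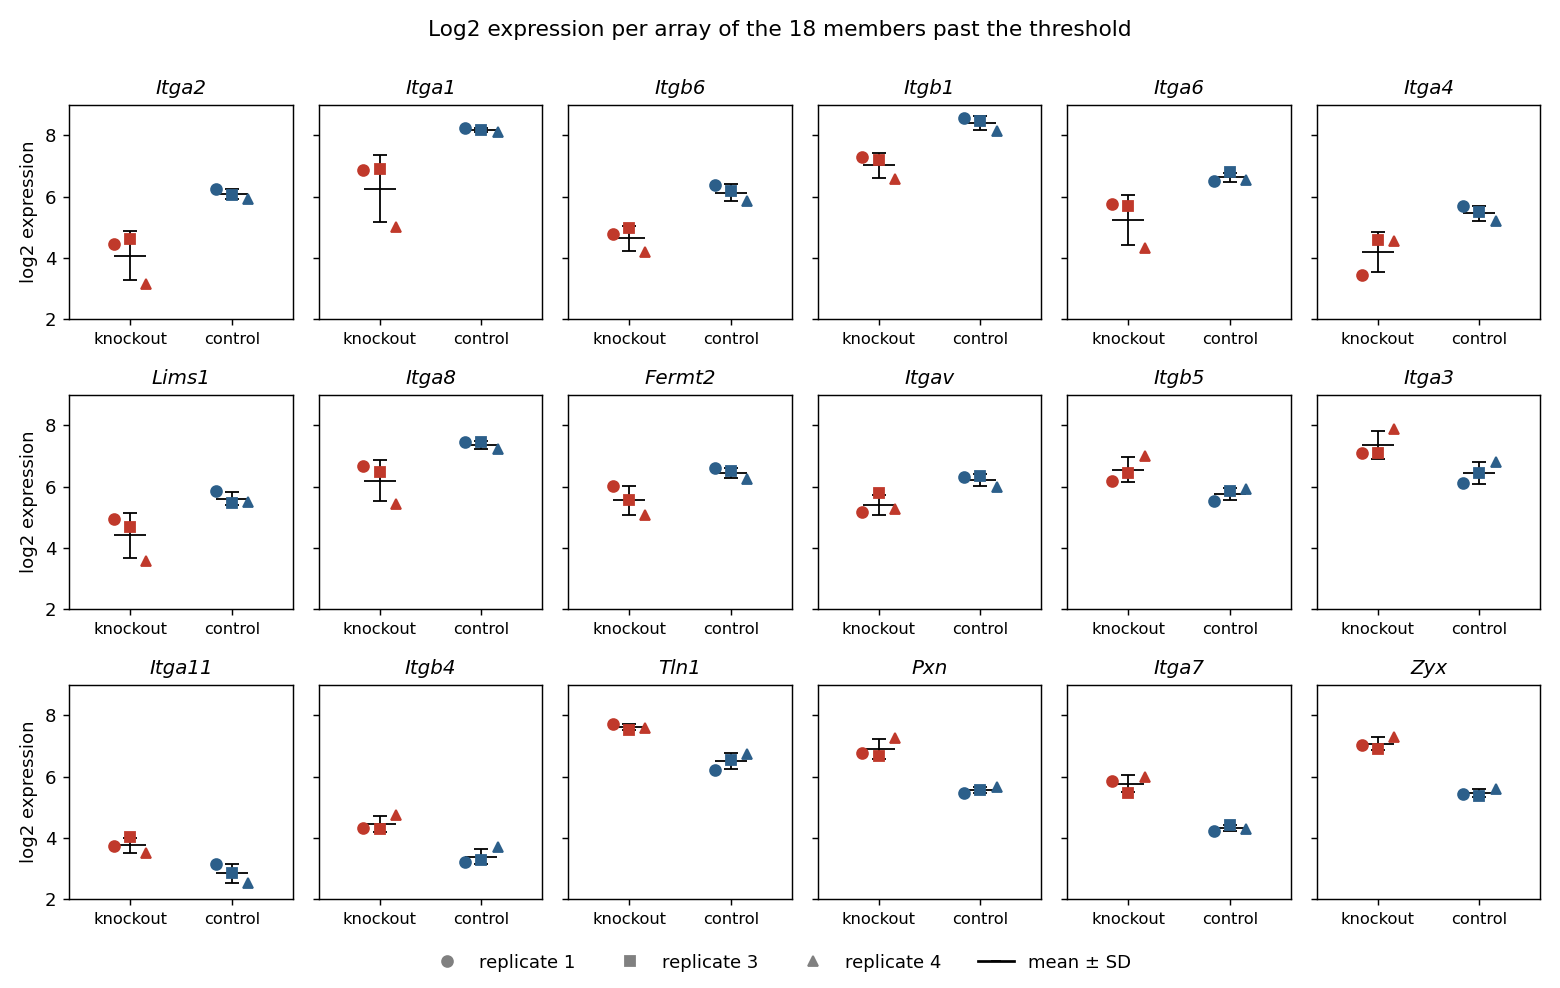
Log2 expression per array of the 18 integrin and adhesion genes past the threshold, ordered by fold change, with knockout arrays on the left and control arrays on the right of each panel; symbols mark the replicate number, bars the mean ± SD of 3 arrays. Knockout replicate 4 was the lowest knockout array at 8 of the 10 genes that were lower, from Itga2 and Itga1 onward. The knockout and control arrays do not overlap in any panel, for genes called on these same values.

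Knockout replicate 4 was the knockout array farthest from the controls at 6 of the 8 higher genes and at 8 of the 10 lower genes. Control replicate 1, the array with high Xist, was the control array farthest from the knockouts at 6 of the 8 higher and at 8 of the 10 lower genes. Without control replicate 1, 10 of the 18 calls were lost and without control replicate 3, 11 were lost. Calls over all genes numbered 3141 and 2882 in these refits, against 6292 with all arrays. Without control replicate 4, 6 were lost, and without knockout replicate 1, 3 or 4 the losses were 1, 3 and 4. The direction of these 18 genes did not change when any 1 array was left out. Itga2, Itga7, Itgb1, Itgb6, Tln1, Pxn and Zyx, 7 of the 18, kept their calls in each of these 6 refits. When the median snoRNA level, which differs between the groups without overlap, was added to the model, none of the 18 passed, nor did any of all 24704 genes (limma; 3576 genes at an unadjusted p under 0.05).

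Promoter sequence was examined because the deleted gene encodes a transcription factor and because serum response factor is known to drive many genes of actin and adhesion. RefSeq promoters of assembly GRCm38.p6 were found for 24 of the 35 genes, as 29 start sites, and the 250 bases before each start were searched on both strands. The motif TGGAAA, the core bound by NFAT proteins, lay in 5 of the 29 windows (Itgb1, Fermt2, Itga5, Itgam and 1 of 2 starts of Itga3) and in 18.6% of all 32851 windows. The CArG box of serum response factor, which can overlap TGGAAA, lay in 3 of the 29 windows (Vcl, Fermt2 and 1 of 2 starts of Itgb6) and in 1.47% of all windows. The sequences shown are from genes with 1 listed start: Zyx and Itga2, the largest rise and the largest fall among genes past the threshold with such an entry, and the 5 such genes with a match. Each runs 5′ to 3′ on the strand of the gene, with TGGAAA (or TTTCCA, the same motif on the other strand) and the CArG box in capitals. The sites of Fermt2 overlap, so its capitals form 1 run.
Zyx, chr6:42349578-42349827 (plus strand): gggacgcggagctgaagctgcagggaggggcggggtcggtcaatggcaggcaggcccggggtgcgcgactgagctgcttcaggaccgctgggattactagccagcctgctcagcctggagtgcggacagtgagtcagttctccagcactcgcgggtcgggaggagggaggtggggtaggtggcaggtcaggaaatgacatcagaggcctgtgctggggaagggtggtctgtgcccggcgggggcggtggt
Itga2, chr13:114932101-114932350 (minus strand): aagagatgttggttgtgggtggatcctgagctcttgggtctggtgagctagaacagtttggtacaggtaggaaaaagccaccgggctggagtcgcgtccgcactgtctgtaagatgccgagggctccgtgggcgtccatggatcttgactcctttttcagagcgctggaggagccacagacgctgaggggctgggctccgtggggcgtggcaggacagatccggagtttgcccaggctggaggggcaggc
Itgam, chr7:128062390-128062639 (plus strand): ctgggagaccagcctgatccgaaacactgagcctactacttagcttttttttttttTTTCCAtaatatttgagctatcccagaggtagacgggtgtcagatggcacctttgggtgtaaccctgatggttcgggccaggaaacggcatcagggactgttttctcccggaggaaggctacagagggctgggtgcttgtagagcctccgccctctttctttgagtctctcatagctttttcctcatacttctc
Itgb1, chr8:128685404-128685653 (plus strand): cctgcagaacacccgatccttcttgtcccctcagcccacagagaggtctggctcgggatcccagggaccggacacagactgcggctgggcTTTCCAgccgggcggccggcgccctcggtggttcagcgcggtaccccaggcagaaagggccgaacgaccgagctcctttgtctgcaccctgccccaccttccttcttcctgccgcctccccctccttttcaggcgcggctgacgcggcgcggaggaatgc
Vcl, chr14:20929148-20929397 (plus strand): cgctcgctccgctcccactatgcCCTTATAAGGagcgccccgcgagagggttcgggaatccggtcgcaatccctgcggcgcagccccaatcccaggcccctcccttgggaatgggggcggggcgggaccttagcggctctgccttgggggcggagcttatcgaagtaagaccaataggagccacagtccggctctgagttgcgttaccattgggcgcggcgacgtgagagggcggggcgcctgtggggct
Fermt2, chr14:45530066-45530315 (minus strand): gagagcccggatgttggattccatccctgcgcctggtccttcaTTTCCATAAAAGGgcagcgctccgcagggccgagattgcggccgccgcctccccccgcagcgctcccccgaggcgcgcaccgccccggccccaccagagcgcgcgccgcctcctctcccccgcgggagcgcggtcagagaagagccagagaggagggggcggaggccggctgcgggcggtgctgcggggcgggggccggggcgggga
Itga5, chr15:103366792-103367041 (minus strand): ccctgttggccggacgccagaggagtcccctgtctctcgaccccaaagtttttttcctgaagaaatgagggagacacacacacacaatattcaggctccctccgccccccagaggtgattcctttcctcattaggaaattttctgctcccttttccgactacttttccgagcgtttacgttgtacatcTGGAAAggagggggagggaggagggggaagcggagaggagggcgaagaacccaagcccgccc
Neither Zyx nor Itga2 held a match in this window. Not every window lay outside the full span of its gene. The Zyx window lay wholly inside the span of Zyx (chr6:42349511-42360213). Nearly all of the Fermt2 window, with its sites, lay inside the span of Fermt2 (chr14:45458792-45530310). The last bases of the Vcl window, without its CArG box, lay inside the span of Vcl, which begins at 20929383. Of the 7 genes with a match, Itga3 was higher, Itgb1, Fermt2 and Itgb6 were lower, and Itga5, Vcl and Itgam did not pass the threshold. A match describes letters in a window and is not a binding site.

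Collagen-binding alpha chains moved in opposite directions. Itga2, the alpha 2 chain of a receptor for fibrillar collagen on epithelium and platelets, had log2 values of 4.46, 4.62 and 3.16 in knockout lungs (replicates 1, 3 and 4, an order kept below), against 6.25, 6.07 and 5.93 in control lungs. Its log2 fold change was -2.00 ± 0.36 (SE, n = 3 per group; adjusted p = 0.0054), the largest fall among the 35 genes. Itga1, the alpha 1 chain, which binds type IV collagen and is made in smooth muscle and capillary cells, had 6.88, 6.90 and 5.00 in knockout lungs, against 8.24, 8.18 and 8.11 in control lungs. The control arrays of Itga1 spanned little, while knockout replicate 4 lay far below the other knockout arrays. The log2 fold change of Itga1 was -1.91 ± 0.46 (adjusted p = 0.016), and the call was lost without control replicate 1 (adjusted p = 0.065) or control replicate 3 (0.061). Itga11, a receptor chain for fibrillar collagen on fibroblasts, was higher in knockout lungs, at 3.73, 4.02 and 3.53, against 3.14, 2.86 and 2.55 in control lungs. The values of control replicates 3 and 4 lay below the array median of 2.98. Itga11 had a log2 fold change of 0.91 ± 0.23 (adjusted p = 0.020), and the call was lost without control replicate 3 (0.072), control replicate 4 (0.073) or knockout replicate 3 (0.052). Itga10, known mainly from cartilage, stood at 2.23 to 2.31 in knockout lungs and 2.27 to 2.31 in control lungs, near the lower quartile of each array.

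Among fibroblast markers, Col1a1 was higher (log2 fold change 1.34) and Dcn lower (-1.36). Pdgfra (-0.95), Lum (-0.75) and Tcf21 (-0.69) had negative fold changes and did not pass. The median log2 fold change of the 6 markers was -0.73. Their summed linear level was 755 to 874 in knockout lungs and 1110 to 1139 in control lungs. Npnt, the brightest of them in control lungs, weighed most in the control sum and did not pass (-0.70, limma, adjusted p = 0.082). The part of fibroblasts in the values of Itga11 was not tested.

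Laminin-binding alpha chains also split, with 2 of 3 higher and 1 lower. Itga7, the laminin receptor chain of muscle, had log2 values of 5.88, 5.47 and 5.98 in knockout lungs, against 4.24, 4.44 and 4.29 in control lungs. It was higher by 1.45 ± 0.21 (SE; adjusted p = 0.0027), a 2.73-fold difference. Smooth muscle markers were past the threshold at 0 of 7 (limma; 1 of 7 at an unadjusted p under 0.05), and their summed linear level was 516 to 594 in knockout lungs and 364 to 567 in control lungs. Itga3, the chain that anchors epithelium to basement membrane laminin, had 7.09, 7.10 and 7.88 in knockout lungs, against 6.11, 6.44 and 6.82 in control lungs. The groups lay close, with the highest control array 0.27 below the lowest knockout array on the log2 scale. The difference of 0.90 ± 0.28 (adjusted p = 0.044) was not past the threshold without control replicate 1 (0.16), control replicate 3 (0.13) or knockout replicate 4 (0.10). Itga6, which pairs with beta 1 on endothelium and with beta 4 in hemidesmosomes, was lower, at 5.76, 5.68 and 4.31 in knockout lungs, against 6.52, 6.79 and 6.56 in control lungs. Itga6 had a log2 fold change of -1.37 ± 0.36 (adjusted p = 0.024). Without control replicate 1, 3 or 4 its adjusted p was 0.073, 0.093 and 0.063, and without knockout replicate 4 the fold change was -0.90.

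Alpha chains that bind the RGD sequence of fibronectin and related ligands gave 2 lower genes of 4 and none higher. Itga8, the nephronectin receptor chain of lung mesenchyme, had log2 values of 6.68, 6.48 and 5.44 in knockout lungs, against 7.46, 7.44 and 7.23 in control lungs (log2 fold change -1.18 ± 0.31, SE; adjusted p = 0.024). Itgav, the alpha v chain that pairs with several beta chains, had 5.17, 5.79 and 5.27 in knockout lungs, against 6.33, 6.34 and 5.98 in control lungs (-0.81 ± 0.23, adjusted p = 0.031). Every knockout array lay below every control array for both genes. Both calls were lost in several refits without 1 array, while the fold changes in those refits stayed close: for Itga8 they were -1.14, -1.14 and -1.25 without control replicate 1, 3 or 4 (adjusted p = 0.090, 0.090 and 0.056). For Itgav they were -0.76 and -0.75 without control replicate 1 or 3 (adjusted p = 0.11 and 0.12), and -0.69 and -0.74 without knockout replicate 1 or 4 (0.068 and 0.070). Itga5, the chain of the main fibronectin receptor of endothelium and fibroblasts, had 6.01, 5.46 and 6.59 in knockout lungs, against 4.31, 4.95 and 5.50 in control lungs. Its groups overlapped by 1 array on each side, and a log2 fold change of 1.10 ± 0.36 missed the threshold (adjusted p = 0.052; 95% interval 0.29 to 1.91). It passed without control replicate 4 (1.39, adjusted p = 0.040) or knockout replicate 3 (1.38, 0.028).

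Itga2b, the fibrinogen receptor chain of platelets, stood at 2.30, 2.36 and 3.93 in knockout lungs, against 2.25, 2.98 and 2.62 in control lungs, and did not pass (0.25 ± 0.42). Only knockout replicate 4 was above the control arrays. Most platelet markers were also highest among knockouts on that array: Gp9, at 2.97, 4.06 and 4.88, and Treml1, Ppbp, Gp1bb and Gp5. Pf4 was lowest there, at 4.07, 3.55 and 3.07, and so was Gp6. The part of platelets in the value of Itga2b was not tested. Of the 7 platelet markers measured 0 were higher and 1, Ppbp, was lower (log2 fold change -1.24). Their summed linear level was 49.5 to 78.5 in knockout lungs and 60.0 to 81.3 in control lungs.

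Itga4, the chain that binds VCAM-1 and fibronectin on leukocytes, had log2 values of 3.43, 4.60 and 4.55 in knockout lungs, against 5.68, 5.50 and 5.20 in control lungs. The log2 fold change was -1.27 ± 0.32 (SE; adjusted p = 0.021), with knockout replicate 1 the lowest array. Without control replicate 1 or 3 the adjusted p was 0.087 and 0.076. Itga9, which binds tenascin C and other ligands and is known from lymphatic valves, stood at 5.31 to 6.04 in knockout lungs and 5.74 to 6.01 in control lungs (-0.18, 95% interval -0.69 to 0.34).

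None of the 5 leukocyte alpha chains was past the threshold (limma; 1 of 5, Itgal, at an unadjusted p under 0.05). Itgal, the chain of LFA-1 on lymphocytes, had 4.81, 5.14 and 4.79 in knockout lungs, against 4.71, 4.26 and 4.25 in control lungs, with a log2 fold change of 0.50 (95% interval 0.02 to 0.99, adjusted p = 0.12). Itgam, the myeloid chain of Mac-1, had 3.22, 4.56 and 3.72 in knockout lungs, against 4.33, 3.87 and 4.55 in control lungs, with an interval from -1.19 to 0.35. Itgax, a marker of dendritic cells and alveolar macrophages, had a log2 fold change of 0.06 with an interval from -0.52 to 0.65. Itgae lay between the lower quartile and the median on all arrays, at 2.19 to 2.60 in knockout lungs and 2.26 to 2.61 in control lungs. Itgad lay near the lower quartile, at 2.14 to 2.25 in knockout lungs, all above the 1.81 to 2.07 of control lungs (log2 fold change 0.25, limma, adjusted p = 0.37). The intervals of Itgam, Itgax and Itgae (-0.56 to 0.36) leave room for a change in either direction.

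Markers of leukocytes did not move as a block beside these genes. Of 5 pan-leukocyte genes 2 were higher, Coro1a (log2 fold change 1.45) and Laptm5 (1.27), and 2 lower, Ptprc (-1.53) and Cd53 (-0.87), and the median log2 fold change of the 5 was -0.26. Their summed linear level was 610 to 756 in knockout lungs and 373 to 399 in control lungs, and Laptm5 was the brightest of them, at 8.89 to 9.22 in knockout lungs and 7.65 to 7.92 in control lungs on the log2 scale. Myeloid markers gave 0 higher and 1 lower of 7, with sums of 181 to 349 in knockout lungs and 351 to 397 in control lungs. The brightest in control lungs was Chil3, at 3.99, 6.49 and 7.18 in knockout lungs, against 7.88, 7.59 and 7.44 in control lungs. Chil3 carried most of that gap but did not pass (limma, adjusted p = 0.089), and the median log2 fold change of the 7 was 0.014. Neutrophil markers gave 0 of 6 past the threshold (limma; also 0 at an unadjusted p under 0.05), with sums of 33.4 to 40.9 in knockout lungs and 31.5 to 40.9 in control lungs. Of 8 lymphocyte markers Cd79a was higher and Cd3g lower, with sums of 114 to 204 in knockout lungs and 107 to 167 in control lungs. Of 6 dendritic cell markers only Xcr1 passed, higher, with sums of 41.8 to 60.2 in knockout lungs and 48.5 to 64.5 in control lungs. No marker stood at 0 on any array. The part of leukocyte number in the integrin values was not tested.

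Of 8 beta chains, 2 were higher and 2 lower. Itgb1, the beta 1 chain shared by the collagen, laminin and most fibronectin receptors, had log2 values of 7.29, 7.20 and 6.57 in knockout lungs, against 8.58, 8.47 and 8.15 in control lungs. Its log2 fold change was -1.38 ± 0.25 (SE; adjusted p = 0.0053), a 2.61-fold lower level. Itgb6, the epithelial partner of alpha v that activates latent TGF-beta, had 4.78, 4.97 and 4.19 in knockout lungs, against 6.39, 6.17 and 5.84 in control lungs (-1.49 ± 0.26, adjusted p = 0.0046). Both genes were clearly separated between the groups, with gaps larger than the spread of either group. Itgb4, the hemidesmosome partner of alpha 6, was higher, at 4.32, 4.30 and 4.74 in knockout lungs, against 3.21, 3.29 and 3.69 in control lungs (1.05 ± 0.22, adjusted p = 0.0099). It narrowly missed the threshold without control replicate 1 or 3 (0.051 each). Itgb5, the vitronectin-binding partner of alpha v, had 6.20, 6.45 and 7.00 in knockout lungs, against 5.55, 5.85 and 5.92 in control lungs (0.78 ± 0.25, adjusted p = 0.046). Its call was lost in 5 of the 6 refits without 1 array: the adjusted p was 0.16, 0.12 and 0.084 without control replicate 1, 3 or 4, and 0.070 and 0.10 without knockout replicate 3 or 4.

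The other beta chains did not pass. Itgb3, the partner of alpha v on endothelium and of alpha IIb on platelets, had 4.79, 4.42 and 5.23 in knockout lungs, against 3.89, 4.25 and 4.46 in control lungs, overlapping by 1 array (0.61, 95% interval 0.03 to 1.20). Itgb7, the lymphocyte chain that pairs with alpha 4 and alpha E, had 3.27, 3.21 and 3.89 in knockout lungs, all above the 2.90, 2.98 and 2.96 of control lungs, with a log2 fold change of 0.51 (adjusted p = 0.13). Itgb2, the shared beta chain of leukocyte integrins, had an interval from -0.18 to 0.68. Itgb8, another partner of alpha v that activates latent TGF-beta, stood at 2.44 to 2.81 in knockout lungs and 2.59 to 2.77 in control lungs, below the array median.

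**Figure D2:**
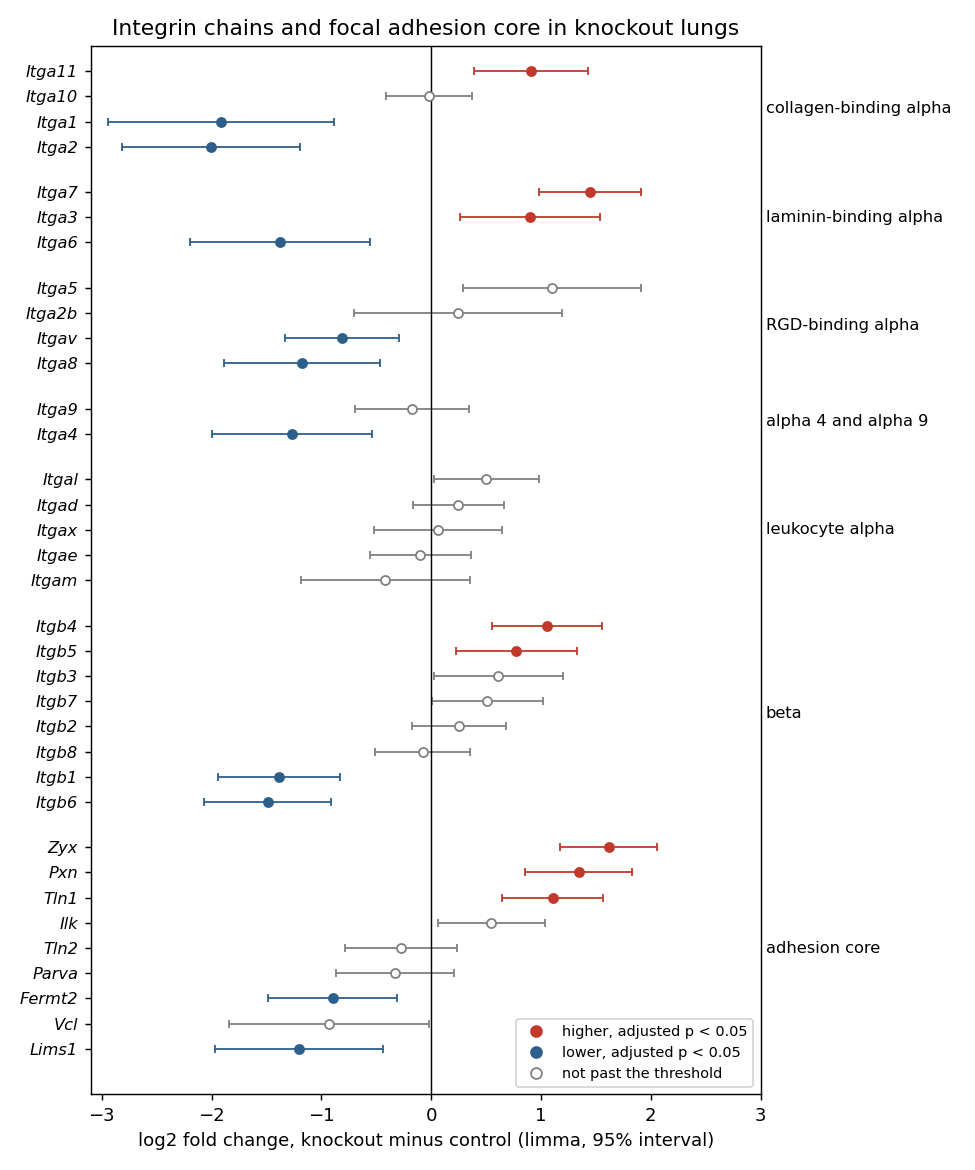
Log2 fold change (knockout minus control) of each of the 35 genes with limma's 95% interval, grouped by role from collagen-binding alpha chains at the top to the adhesion core at the bottom; filled points passed the threshold and open points did not. Each group of matrix-binding chains except the RGD-binding and alpha 4 and alpha 9 chains holds genes on both sides past the threshold, while the 5 leukocyte alpha chains are all open points.

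Epithelial and endothelial markers beside these chains were also mixed. Of 11 epithelial markers 2 were higher, Foxj1 and Krt8, and 2 lower, Sftpa1 and Cdh1, and their summed linear level was 9312 to 14330 in knockout lungs and 14735 to 16125 in control lungs. Of 10 endothelial markers 3 were higher and 5 lower, with Cdh5 at -1.52 and Egfl7 at 1.06, and the sum was 2038 to 2263 in knockout lungs and 3185 to 3867 in control lungs. The sums were thus lower in every knockout array for both lists, but a few bright genes carried them. Scgb1a1, Sftpc and Sftpb made up most of the epithelial sum and did not pass (limma, adjusted p = 0.052, 0.25 and 0.42). Cdh5 and Pecam1 (-1.59), the brightest endothelial markers in control lungs, were lower, while Cldn5, Eng and Egfl7 were higher. The part of these cell types in the falls of Itga1, Itga6, Itgb1 and Itgb6 was not tested.

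The adhesion core gave 3 higher and 2 lower genes of 9. Zyx, a LIM protein that gathers on actin fibres under tension, had log2 values of 7.04, 6.90 and 7.30 in knockout lungs, against 5.43, 5.37 and 5.60 in control lungs. Its log2 fold change of 1.62 ± 0.20 (SE; adjusted p = 0.0019) was the largest rise among the 35 genes, a 3.07-fold difference. Pxn, the scaffold paxillin, had 6.76, 6.69 and 7.28 in knockout lungs, against 5.48, 5.57 and 5.65 in control lungs (1.34 ± 0.22, adjusted p = 0.0037). Tln1, the widely made talin that activates integrins, had 7.71, 7.53 and 7.61 in knockout lungs, against 6.22, 6.56 and 6.75 in control lungs (1.11 ± 0.20, adjusted p = 0.0061). These 3 genes passed without any single array and had knockout arrays well above all control arrays. Tln2, the talin of muscle and brain, did not pass, at 3.13 to 3.55 in knockout lungs and 3.40 to 3.96 in control lungs (-0.27, 95% interval -0.79 to 0.24).

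Lims1, which encodes the adaptor PINCH, had 4.95, 4.70 and 3.59 in knockout lungs, against 5.86, 5.47 and 5.51 in control lungs (-1.20 ± 0.34, SE; adjusted p = 0.030). Fermt2, which encodes the integrin activator kindlin-2 and whose overlapping CArG and TGGAAA sites are shown above, had 6.02, 5.56 and 5.08 in knockout lungs, against 6.60, 6.50 and 6.25 in control lungs (-0.90 ± 0.26, adjusted p = 0.034). Neither call held without control replicate 1, 3 or 4 (adjusted p = 0.11, 0.081 and 0.071 for Lims1, and 0.12, 0.11 and 0.061 for Fermt2). Fermt2 also missed it without knockout replicate 3 (0.067) or 4 (0.076), and the fold change of Lims1 was -0.79 without knockout replicate 4. Ilk, the kinase-like scaffold that binds PINCH and parvin, had 6.37, 6.46 and 6.99 in knockout lungs, all above the 6.02, 6.04 and 6.11 of control lungs, and missed the threshold (0.55 ± 0.22, adjusted p = 0.097). Parva, the parvin of this complex, had a log2 fold change of -0.33 with an interval from -0.86 to 0.20. Vcl, the actin linker vinculin, had 7.38, 7.25 and 5.70 in knockout lungs, all below the 7.67, 7.88 and 7.58 of control lungs. Its log2 fold change of -0.93 ± 0.40 (adjusted p = 0.13) was -0.39 without knockout replicate 4.

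Related genes were then set against each other within arrays, for 11 pairs. For each pair, the log2 value of the second gene was subtracted from that of the first on each array, and knockout and control arrays were compared with an exact two-sided permutation test. With 3 arrays against 3 this exact test cannot go below p = 0.10, so no pair could pass a threshold of 0.05. The difference of Tln1 minus Tln2 was larger in knockout lungs by 1.38 ± 0.13 (SE, n = 3 per group), at 4.16 to 4.40 in knockout arrays and 2.80 to 3.14 in control arrays (exact permutation p = 0.10, adjusted p = 0.11 over 11 pairs). Itga1 minus Itga11, both collagen receptors, was smaller by -2.82 ± 0.54, and Itgb5 minus Itgb6, both partners of alpha v, was larger by 2.26 ± 0.52. Itga3 minus Itga6 was larger by 2.27 ± 0.76, and Itgb1 minus Itgb5 was smaller by -2.16 ± 0.52. Of the 11 pairs 9 joined genes with fold changes of opposite sign, chosen with those results known, so the separation of their differences restates the values of the single genes. Itgb3 minus Itgb5, genes with the same sign, overlapped between the groups (-0.16 ± 0.19, exact permutation p = 0.50). Itga4 minus Itga9, also genes with the same sign, did not overlap (-1.09 ± 0.60, exact permutation p = 0.10).

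Gene length moved with the fold changes. Across the 35 genes, which share the same 6 arrays and are not replicates, log2 fold change and the genomic span of each gene, its length, had a Spearman rho of -0.57. Across 19686 protein-coding genes rho was -0.32. Of the 17 genes from 6.34 to 56.9 kb, 5 were higher and 1, Itgb1, was lower, and the median log2 fold change was 0.50. Of the 18 genes from 62.5 to 417 kb, 3 were higher (Pxn, Itga11 and Itgb5) and 9 lower, with a median of -0.85. Among protein-coding genes in these ranges, 14.8% of 10991 shorter genes were higher and 14.9% lower, and 5.61% of 3528 longer genes were higher and 31.7% lower.

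After a smooth trend of expression on gene length had been taken out of each array, 12 of the 18 calls remained. The falls that remained were those of Itga2 (-1.64, adjusted p = 0.0090), Itga1 (-1.53, 0.028), Itgb1 (-1.15, 0.0094) and Itgb6 (-1.11, 0.010). Falls of Itga6 (-1.05, adjusted p = 0.051), Itga4 (-0.93, 0.055), Itga8 (-0.81, 0.069), Lims1 (-0.83, 0.084), Fermt2 (-0.57, 0.12) and Itgav (-0.46, 0.14) were not past the threshold. All 8 rises remained, among them Pxn at 1.65, Itga11 at 1.28 and Itgb5 at 1.16, and Itga5 (1.10, 0.045), Itgb3 (0.91, 0.036) and Itgal (0.69, 0.041) passed as well. The count over the 35 genes was then 11 higher and 4 lower, in a setting where 26.1% of 19686 protein-coding genes passed, 12.9% higher and 13.2% lower.

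**Figure D3:**
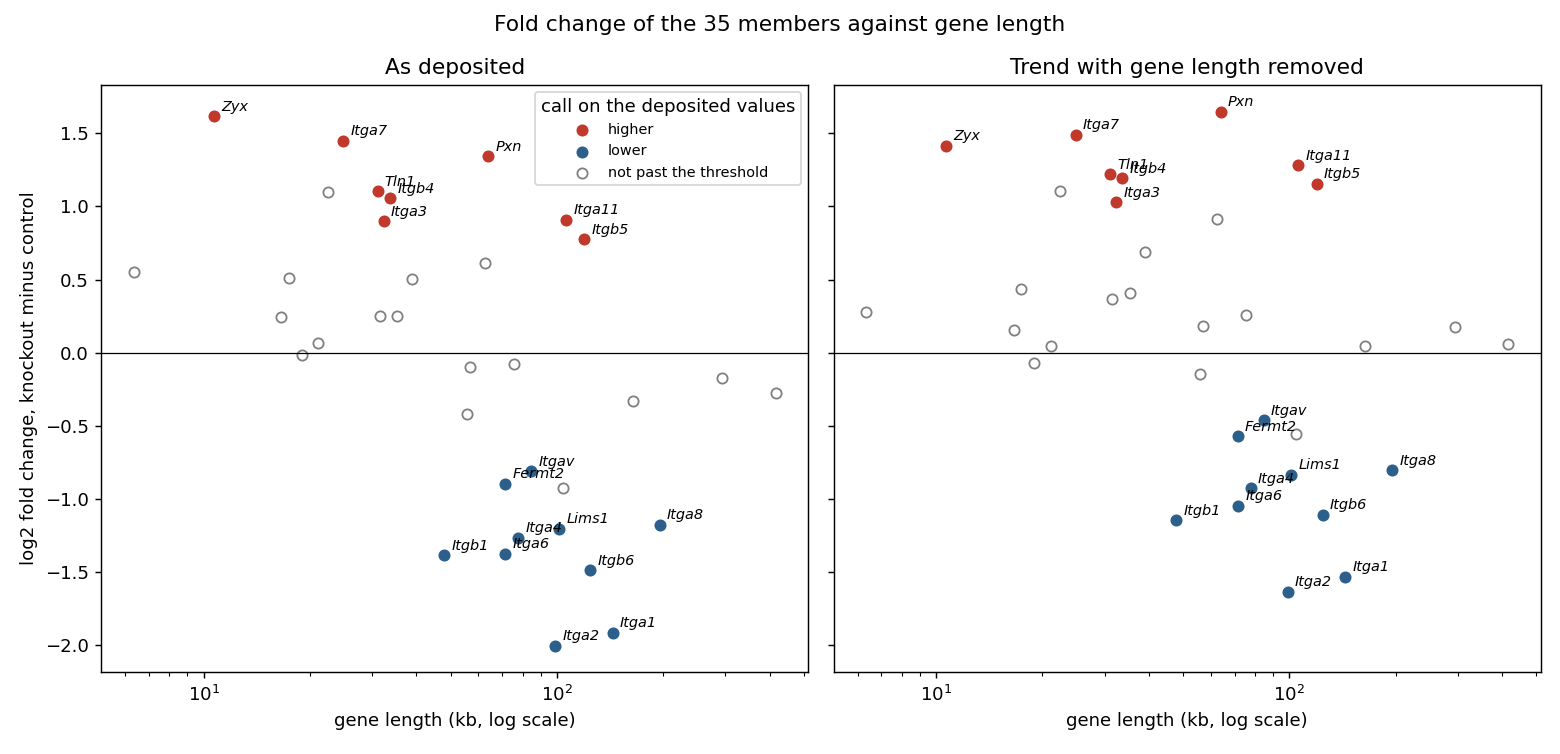
Log2 fold change (knockout minus control) of the 35 genes against gene length in kb on a log scale, from the deposited values on the left and without each array's length trend on the right; colours give the call on the deposited values. On the left 9 of the 10 lower genes lie at 62.5 kb or above; on the right these points lie nearer 0 and the long genes Itga11 and Itgb5 lie farther above it.

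Other proteins of focal adhesions, from a list of 58 of which 54 were measured, also moved both ways: 14 were higher and 9 lower in knockout lungs, and their median log2 fold change was 0.05. That is 42.6% of the list, against 25.5% of all genes. In the refit of genes above the median level, 16 of the 51 listed genes there were higher and 10 lower. Of all genes in that refit 46.9% passed, 23.3% higher and 23.5% lower. Bcar1, the docking protein p130Cas that joins paxillin in signalling, was at 5.72 ± 0.32 in knockout lungs and 4.07 ± 0.09 in control lungs (SD, n = 3 each), a log2 fold change of 1.65 ± 0.22 (SE; adjusted p = 0.0023). The kinase Src, which phosphorylates paxillin and Bcar1, rose by 1.42 ± 0.23, and Vasp, which extends actin filaments and binds zyxin, by 1.48 ± 0.21. Tensin 2 (Tns2) rose by 1.47 ± 0.20, the zyxin relative Trip6 by 1.51 ± 0.27 and Git1, a partner of paxillin, by 1.32 ± 0.25. Lims2, the second PINCH gene, rose by 0.97 ± 0.18, where Lims1 was lower. Ptpn12, a phosphatase that acts on Bcar1 and paxillin, had a log2 fold change of -1.26 ± 0.21. These 8 genes had adjusted p-values of 0.0023 to 0.0070. The 31 genes that did not pass ranged from -1.44 to 0.89. The count of lower genes was 3 without control replicate 1 and 2 without control replicate 3, and that of higher genes was 8 and 9.

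Genes of integrin ligands gave more higher than lower calls. Of 37 listed genes 35 were measured, 12 were higher and 2 lower, and the median log2 fold change was 0.42. That is 40.0% of the list, against 25.5% of all genes (12.5% higher and 13.0% lower). In the refit of genes above the median level, 13 of the 30 ligand genes there were higher and 2 lower. Of all genes in that refit 23.3% were higher and 23.5% lower. The list was drawn up with earlier results of these data known and is not independent evidence of its direction. Basement membrane chains were among the 12: Col4a2 rose by 1.62 ± 0.20 and Col4a1 by 1.07 ± 0.20 (SE, n = 3 per group), ligands of the alpha 1 chain, and the laminin chains Lama5 by 1.21 ± 0.23 and Lamb2 by 1.24 ± 0.25. Col1a1, the fibrillar collagen bound by the alpha 2 and alpha 11 chains, rose by 1.34 ± 0.21. Tgfb1, whose latent protein is bound by alpha v integrins, rose by 1.58 ± 0.19, Vwf by 1.61 ± 0.24 and the elastic fibre protein Emilin1, a ligand of alpha 4, by 1.40 ± 0.24. Adjusted p-values ran from 0.0019 to 0.0080 over these 8 genes. The 2 lower genes, named after their values were seen, were Edil3, a ligand of alpha v integrins (-1.19 ± 0.25), and Cdh1, the E-cadherin that alpha E binds (-0.76 ± 0.23). The count of lower ligand genes was 1 without control replicate 1, control replicate 3, control replicate 4 or knockout replicate 4.

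**Figure D4:**
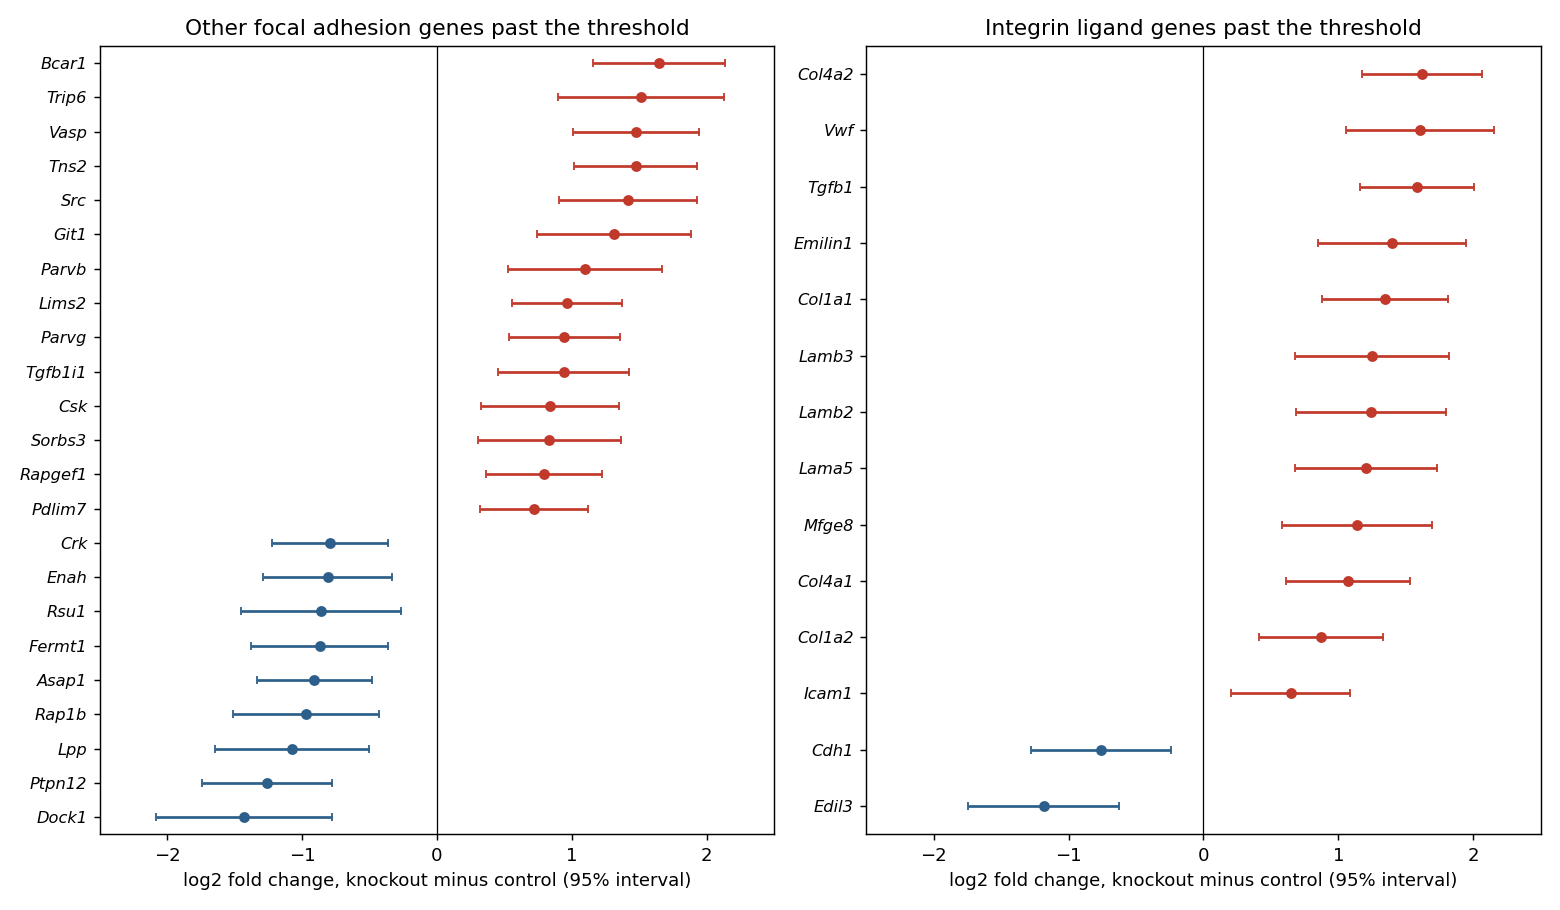
Log2 fold change (knockout minus control) with limma's 95% interval of the other focal adhesion genes past the threshold on the left (14 higher and 9 lower of 54) and of the integrin ligand genes past it on the right (12 higher and 2 lower of 35). Points right of 0 were higher in knockout lungs; Bcar1 leads on the left and Col4a2 on the right.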

How the data were processed

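Biotin-labelled cRNA from whole lung was hybridised to Affymetrix arrays, per the labels' protocols. The authors deposited log2 expression, made with RMA per the submitters' processing notes, 1 value per probe set and array; the sources used here give no version, and the equal quantiles over arrays show normalization to a common distribution. Of 25428 probe sets, 24705 had 1 gene symbol, 0 several and 723 none here. The brighter probe set of a gene was kept, which left 24704 genes, of which 24672 matched the RefSeq table of GRCm38.p6 by Entrez identifier, for coordinates, length and biotype. No dim gene was removed.

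Knockout and control arrays were compared with limma 3.58.1 in R 4.3.3 (lmFit, eBayes; Benjamini-Hochberg over all genes; threshold 0.05), fitted on the whole table and tested on simulated data. Intervals are at 95%. The lowess span for gene length was 0.3. The number of arrays limits the precision, and depth has no meaning here. Summed marker levels add 2 to the power of each log2 value. All integrin and adhesion genes were named; of the other adhesion and ligand lists, up to 8 genes past the threshold of smallest p each, with exceptions marked. The members and lists were chosen with earlier results of these data known. Replicate numbers are shared by the groups (1, 3 and 4), but deviations of same-numbered arrays from their group means correlated at 0.06, -0.01 and 0.0038, so the arrays were not treated as paired.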

Additional observations from a re-analysis of the deposited data

How the results depend on the processing

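Counts of genes past the threshold were recomputed under each alternative. The counts for integrins and adhesion core stayed within 1.5 times with filters on dim genes, averaged probe sets, unnamed probe sets included, protein-coding genes alone, median or quantile scaling, limma's intensity trend, robust eBayes or array weights; Itga5 passed in addition under both filters, protein-coding genes and the intensity trend. With the replicate number as a block (replicate block), 6 integrins instead of 5 were higher, Itga5 being the addition (1.10, adjusted p = 0.026), and no other gene of the 35 changed its call; the numbers were not found to pair the arrays. With the length trend removed, 8 integrins were higher and 4 lower, 0 adhesion core genes were lower (limma; 2 at an unadjusted p under 0.05) and 1 ligand gene was lower; array weights also left 1 lower ligand gene. With the snoRNA covariate all 8 counts were 0 (limma; at an unadjusted p under 0.05, 2 integrins higher and 5 lower, 0 core genes higher and 3 lower, 8 other adhesion genes higher and 3 lower, 0 ligands higher and 4 lower). At an adjusted p of 0.01, 2 integrins were higher and 3 lower, 0 core genes lower (3 at an unadjusted p under 0.05), 8 other adhesion genes higher and 3 lower, and 1 ligand lower; at 0.10, 15 other adhesion genes were lower. Leaving out 1 array at a time, higher integrins numbered 1 to 5 and lower ones 3 to 8; higher core genes 3 to 3 and lower ones 0 to 2; higher other adhesion genes 8 to 15 and lower ones 2 to 12; higher ligands 9 to 13 and lower ones 1 to 2.

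Of 660 values of single genes under alternatives, 577 kept direction and side of the threshold, 57 fell below it, 10 passed it and 16 changed sign, each of those not past the threshold after the change. With the length trend removed these were Itga9 (0.18), Itgae (0.18), Itgb8 (0.26), Tln2 (0.057) and Parva (0.048). With the snoRNA covariate they were Itgav (0.13), Itga4 (1.88), Itgam (2.05), Itgb2 (-0.33) and Itgb8 (0.45). With 1 array left out at a time, log2 fold changes ran from -0.033 to 0.0088 for Itga10 (positive without knockout replicate 3), from -0.29 to 0.53 for Itga2b (negative without knockout replicate 4), and from -0.36 to 0.0025 for Itga9 (positive without knockout replicate 3). They ran from -0.16 to 0.31 for Itgax (negative without knockout replicate 3 and, at -0.017, without control replicate 4) and from -0.18 to 0.0019 for Itgb8 (positive without knockout replicate 1). The cause was not tested. Values near the lower quartile of 2.02 (Itga10, Itgad) or between it and the median (Itgae, Itgb8, most of Itga2b) may lie at background, which is not given. The same holds for control values of Itga11 (2.86 and 2.55, replicates 3 and 4) and Itgb7 (2.90 and 2.96, replicates 1 and 4).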
